A study of Mus musculus with 10 samples.

Results

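Matricellular proteins and matrix remodelling enzymes were followed through 10 genes of mouse calf muscle: the secreted glycoproteins Sparc, Postn, Thbs1 and Fn1, the proteases Ctsk, Mmp2 and Mmp14, the protease inhibitors Timp1 and Timp2, and the crosslinking enzyme Lox. They were taken by gene symbol from 19938 genes with a probe set of their own on the array, and each of the 10 had 1 probe set. RNA came from gastrocnemius of male C57BL/6 mice, and each of the 10 Affymetrix whole-transcript arrays held a pool from 5 animals. The F0 EX pool came from animals given voluntary exercise and the F0 SED pool from sedentary animals, both 28 weeks old. F1 EX and F2 EX descended from exercised F0 animals mated with like-exposed partners, and F1 SED and F2 SED from sedentary ones. All F1 and F2 animals were sedentary and 8 weeks old, and F1 littermates were bred with each other to give F2. Each F0 group was 1 pool, and each of the 4 descendant groups had 2 pools. Age, generation and breeding history therefore cannot be told apart between F0 and descendants. Nothing in the labels says that the pools of a group hold different animals, so p-values measure only the spread between pools, which may be technical.

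The matrix between muscle fibres is built mainly by fibroblasts and, towards the tendon, by tenocytes, and collagen fibrils give it strength. Matricellular proteins do not carry load themselves but bind collagen, growth factors and cell receptors, and steer how fibrils are assembled. Matrix metalloproteinases and cathepsin K cut collagen, tissue inhibitors of metalloproteinases (TIMPs) block the metalloproteinases, and lysyl oxidase joins collagen and elastin chains into a crosslinked network. MMP14 sits on the cell surface, where it activates the secreted gelatinase MMP2 in a complex that holds TIMP2.

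Signals below are on the deposited log2 scale of probe sets, so that 1 unit is a doubling. Arrays resembled each other closely, with a median Pearson r between 0.986 and 0.992 with the other 9 arrays across 11963 kept genes, except for F0 SED (0.974) and F1 EX pool 1 (0.979), which stood apart. Values without them are given where leaving them out moved a named result most. The muscle label was checked on its markers, and the mean signal of 8 fibre genes such as Acta1, Ckm and Myh4 lay between 12.51 and 12.74 in F0 and between 12.59 and 12.91 in descendants. All 10 genes passed the filter on low signals (a mean of at least 3.23, the 40th percentile of genes). Their means over the arrays stood at percentiles from 54.6 (Timp1) to 99.2 (Sparc) of all genes. Signals of different probe sets are not on a common scale, so levels are compared between pools and not between genes.

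Promoter sequences were held for 6 of the 10 genes, and they are shown because all 6 had lower estimates in F0 than in descendants, by unequal amounts. Each line gives the 250 bases before the annotated start, from RefSeq on GRCm38.p6, read 5′ to 3′ on the gene's strand. Capitals mark matches on either strand to any of 5 motifs. The TATA box was searched as TATAAA, the AP-1 site as the letters TGANTCA, the GC box as the letters GGGCGG, the CCAAT box by its name, and the SMAD element as the letters CAGACA. For Postn, which has 2 starts in the table, the window with a match is shown.
Sparc (chr11:55420081-55420330, reverse strand): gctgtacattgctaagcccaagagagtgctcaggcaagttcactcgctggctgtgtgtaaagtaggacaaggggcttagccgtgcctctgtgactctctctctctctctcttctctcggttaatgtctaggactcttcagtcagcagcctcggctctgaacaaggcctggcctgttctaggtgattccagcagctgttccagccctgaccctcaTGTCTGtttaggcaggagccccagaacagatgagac
Postn (chr3:54360857-54361106, forward strand): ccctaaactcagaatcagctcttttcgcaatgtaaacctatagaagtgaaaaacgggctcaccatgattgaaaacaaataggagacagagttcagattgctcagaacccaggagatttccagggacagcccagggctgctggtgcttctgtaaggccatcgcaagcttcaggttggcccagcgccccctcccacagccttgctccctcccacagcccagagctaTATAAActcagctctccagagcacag
Ctsk (chr3:95498960-95499209, forward strand): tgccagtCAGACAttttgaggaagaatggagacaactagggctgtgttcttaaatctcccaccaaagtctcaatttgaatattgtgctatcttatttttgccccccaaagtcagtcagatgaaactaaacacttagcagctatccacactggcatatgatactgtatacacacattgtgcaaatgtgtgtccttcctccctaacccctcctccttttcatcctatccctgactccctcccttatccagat
Mmp14 (chr14:54431348-54431597, forward strand): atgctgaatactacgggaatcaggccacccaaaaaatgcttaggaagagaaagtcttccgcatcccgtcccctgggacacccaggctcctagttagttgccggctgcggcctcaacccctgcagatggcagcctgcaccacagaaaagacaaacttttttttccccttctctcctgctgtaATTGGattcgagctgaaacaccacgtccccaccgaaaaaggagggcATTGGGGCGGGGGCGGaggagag
Timp1 (chrX:20869916-20870165, forward strand): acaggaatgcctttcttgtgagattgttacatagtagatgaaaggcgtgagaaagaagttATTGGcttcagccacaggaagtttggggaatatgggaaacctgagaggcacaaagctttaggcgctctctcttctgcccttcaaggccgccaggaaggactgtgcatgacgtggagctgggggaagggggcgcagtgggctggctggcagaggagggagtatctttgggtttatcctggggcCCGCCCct
Timp2 (chr11:118355412-118355661, reverse strand): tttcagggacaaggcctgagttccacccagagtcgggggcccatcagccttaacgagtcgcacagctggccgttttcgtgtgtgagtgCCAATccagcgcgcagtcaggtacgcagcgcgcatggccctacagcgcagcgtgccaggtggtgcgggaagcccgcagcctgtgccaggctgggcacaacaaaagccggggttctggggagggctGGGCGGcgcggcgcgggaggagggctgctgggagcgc
The Postn window held the only TATAAA, 26 bases before the start, a motif found in 12.4% of the 32851 windows of this length. GC and CCAAT boxes were both present for Mmp14, Timp1 and Timp2, and neither for Sparc, Postn or Ctsk. They occur in 32.7% and 33.8% of all windows. CAGACA was read in Sparc, 36 bases before the start and on the opposite strand, and in Ctsk, 243 bases before it, against 17.1% of all windows. In Mmp14 a CCAAT match and a GC box begin 23 and 19 bases before the start and share 1 base. No window held TGANTCA, which stands in 6.75% of all windows. The share of G and C was 68.0% in the Timp2 window and 43.2% in the Ctsk window, with a median of 52.4% over all windows. These are letter matches only, and a match is not a bound site.

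**Figure D1:**
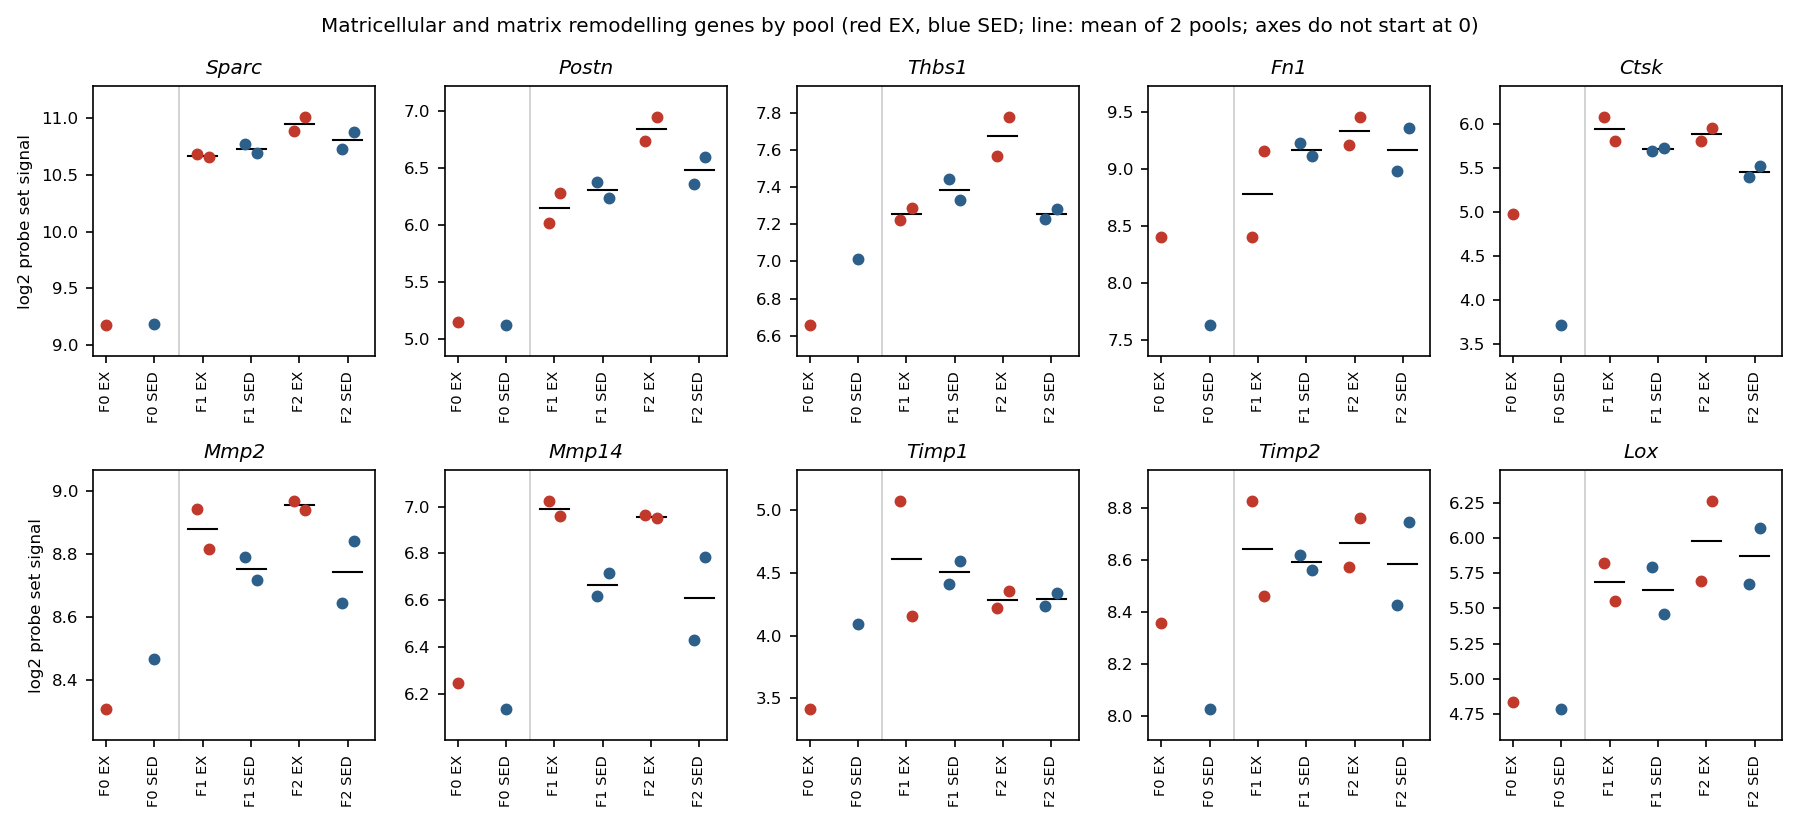
Each panel plots the log2 probe set signal of 1 gene (vertical axis, not starting at 0) for the 6 groups, with a point for each pool, EX in red and SED in blue, and a line at the mean of 2 pools. Both F0 pools lie below all 8 descendant pools in each panel, by 1.47 for Sparc and by 0.002 for Fn1.

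The widest contrast was between F0 animals and their descendants. Sparc, Postn, Fn1, Ctsk, Mmp14 and Lox fell past the threshold (limma adjusted p under 0.05 over all genes). The largest was a 3.05-fold lower Sparc signal, and the 4 genes that missed the threshold, Thbs1, Mmp2, Timp1 and Timp2, had estimates from 1.35-fold to 1.59-fold lower. Across all 11963 genes, 1.54% fell past the threshold in this comparison and 0.794% rose, while 6 of these 10 fell. All 10 had an estimate below 0 (54.9% of all genes), an unadjusted limma p under 0.05 in this direction (10.0%) and both F0 pools below all descendant pools (6.65%). The median difference was -0.83 for the 10 genes and -0.024 for all genes. Because the 10 were chosen with earlier results of these data known, their excess over all genes is a description and not independent support.

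Sparc, a collagen-binding glycoprotein needed for normal fibril assembly, had a signal of 9.18 in the F0 EX pool and 9.18 in the F0 SED pool, against a lowest of 10.65, a median of 10.75 and a highest of 11.01 in the 8 descendant pools. The groups were separated by several times the range of the descendants, which was 0.35. The difference was -1.61 (SE 0.104, adjusted p = 8.00e-06 by limma), the fifth smallest p of all genes. Postn encodes periostin, which binds collagen and fibronectin and aids crosslinking. Its signal was 5.14 in the F0 EX pool and 5.12 in the F0 SED pool, against 6.02 to 6.95 in descendants with a median of 6.37. The F0 pools were nearly level with each other and well under the lowest descendant pool, with a difference of -1.31 (SE 0.144, limma adjusted p = 6.65e-04). Leaving out any 1 array moved either gene little: the difference lay between -1.63 and -1.58 for Sparc, and between -1.36 and -1.27 for Postn, over these fits.

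Fn1, fibronectin, forms the provisional scaffold on which collagen is laid down. It stood at 8.40 in the F0 EX pool and 7.63 in the F0 SED pool, against 8.40 to 9.46 in descendants with a median of 9.18. F1 EX pool 1 alone brought the descendants down to the F0 EX level, since the next lowest descendant pool was at 8.98. The difference was -1.10 (SE 0.232, limma adjusted p = 0.0304). It was -0.66 (adjusted p = 0.373) without F0 SED, -1.54 without F0 EX and -0.86 (adjusted p = 0.0477) without F0 SED and F1 EX pool 1. The Fn1 call ended in 10 of 20 other settings, among them leaving out any 1 descendant pool other than F1 EX pool 1 and F2 SED pool 1 (adjusted p from 0.0518 to 0.0662). Thbs1, thrombospondin 1, can release TGF-beta from its latent form. Its signal was 6.66 in the F0 EX pool and 7.01 in the F0 SED pool, against 7.22 to 7.78 in descendants. Neither F0 pool overlapped the descendants, yet the difference of -0.56 (SE 0.152) had a limma adjusted p of 0.0848. It was -0.81 without F0 SED and -0.31 without F0 EX.

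Among the proteases Ctsk differed most. Cathepsin K is a collagen-cutting lysosomal enzyme best known from bone-resorbing osteoclasts and also made by fibroblasts. Its signal was 4.98 in the F0 EX pool and 3.72 in the F0 SED pool, against 5.40 to 6.08 in descendants with a median of 5.77. Both F0 pools were low, and F0 SED lay much lower than F0 EX. The difference was -1.41 (SE 0.175, limma adjusted p = 1.88e-03). It was -0.94 without F0 SED and -1.87 without F0 EX. Of 5 osteoclast and bone markers 4 had a value in the table, of which Acp5 alone passed the filter, with a difference of 0.040 (limma adjusted p = 0.903).

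Mmp14, the membrane-anchored collagenase, had 6.24 in the F0 EX pool and 6.13 in the F0 SED pool, against 6.43 to 7.02 in descendants with a median of 6.87. The difference was -0.62 (SE 0.115, limma adjusted p = 0.0160), and the lowest descendant pool, F2 SED pool 1, was 0.19 above F0 EX. The call ended without F0 EX (-0.50, adjusted p = 0.0591) and without F0 SED (-0.73, adjusted p = 0.0677). Mmp2, the gelatinase that MMP14 activates, had 8.31 in the F0 EX pool and 8.47 in the F0 SED pool, against 8.64 to 8.97 in descendants. The pools did not overlap, and the difference of -0.45 (SE 0.112) missed the threshold at a limma adjusted p of 0.0646. It was -0.61 without F0 SED and -0.28 without F0 EX, and without F1 EX pool 1 Mmp2 passed (-0.43, adjusted p = 0.0463).

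The inhibitors had the weakest tests. Timp1, a secreted inhibitor that many cells raise on injury, stood at 3.41 in the F0 EX pool and 4.09 in the F0 SED pool, against 4.15 to 5.07 in descendants with a median of 4.35. F0 SED came within 0.061 of the lowest descendant pool, F1 EX pool 2, and the highest was F1 EX pool 1. The difference was -0.67 (SE 0.210, limma adjusted p = 0.129). Without F1 EX pool 1 it was -0.56 and passed (adjusted p = 0.0428), and it was -1.04 without F0 SED and -0.30 without F0 EX. Timp2, the inhibitor that also takes part in MMP2 activation, had 8.36 in the F0 EX pool and 8.03 in the F0 SED pool, against 8.42 to 8.83 in descendants. Its difference of -0.43 (SE 0.131, limma adjusted p = 0.120) was past the threshold in 0 of 20 other settings. The Timp2 difference was -0.30 without F0 SED, -0.56 without F0 EX and -0.23 without F0 SED and F1 EX pool 1.

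Lox, which starts collagen and elastin crosslinks, had 4.83 in the F0 EX pool and 4.79 in the F0 SED pool, against 5.46 to 6.26 in descendants with a median of 5.75. The F0 pools lay close together and 0.63 or more below every descendant pool. The difference was -0.98 (SE 0.161, limma adjusted p = 8.03e-03), a 1.98-fold lower signal. It lay between -1.03 and -0.92 when single arrays were left out, with an adjusted p of 0.0976 without F0 SED. Beside the promoter windows shown above, Sparc, Postn and Ctsk had differences of -1.61, -1.31 and -1.41, and Mmp14, Timp1 and Timp2, whose windows held GC and CCAAT boxes, -0.62, -0.67 and -0.43. With 6 genes this is a description only.

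**Figure D2:**
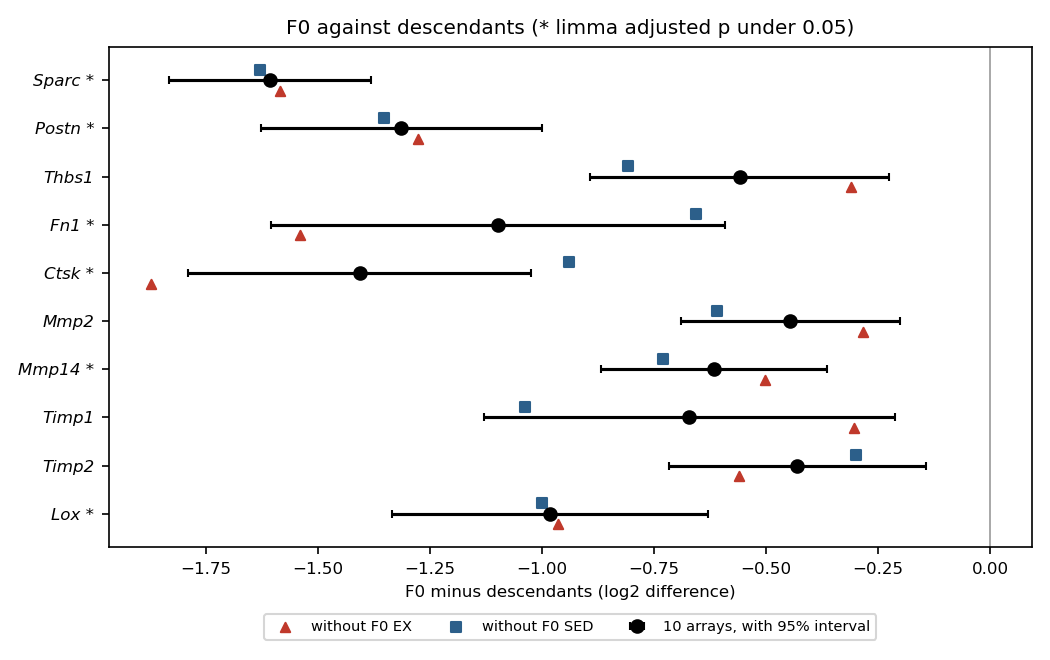
Points give the log2 difference, F0 minus descendants, of each gene with its 95% interval from the limma fit on 10 arrays, and an asterisk marks an adjusted p under 0.05. Triangles and squares give the value without F0 EX and without F0 SED, which for Ctsk lie at -1.87 and -0.94.

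Without F0 SED the differences of the 10 genes lay between -1.63 (Sparc) and -0.30 (Timp2). Without F0 EX they lay between -1.87 (Ctsk) and -0.28 (Mmp2). In these fits the lone F0 pool is assumed to vary like the other groups. Without both F0 SED and F1 EX pool 1, the differences lay between -1.64 (Sparc) and -0.23 (Timp2). With the 4 F1 pools alone as descendants, Sparc was the 1 gene of the 10 to pass, where 14 of all genes did. With the 4 F2 pools alone 5 of the 10 passed, and the count over all genes is not given here. The sign was negative for every gene in all of these fits.

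Other lists of matrix genes, chosen like the 10 with results known, varied in how many members passed. Of 6 fibrillar collagen and elastin genes, 5 fell, led by Col1a1, the main chain of fibrillar collagen, at 9.51 in the F0 EX pool and 9.56 in the F0 SED pool against 11.65 to 12.06 in descendants (difference -2.27, limma adjusted p = 1.47e-06). Col1a2 differed by -1.88, Col3a1 by -1.50 and Col5a2 by -1.13. Of 14 kept genes of collagen crosslinking and processing, 3 fell: the collagen chaperone Serpinh1 (-0.87, adjusted p = 4.14e-03), the lysyl oxidase relative Loxl4 (-0.61, 0.0211) and the procollagen C-proteinase enhancer Pcolce (-0.71, 0.0378). Crtap, a part of the prolyl 3-hydroxylation complex, had -0.53 (0.0560). Of 12 kept ADAMTS and astacin proteases, 2 fell, Adamts12 (-1.22, adjusted p = 6.02e-03) and Bmp1, which trims procollagen and activates lysyl oxidase (-0.59, 0.0441), while Adamts15 had -0.69 (0.0627) and Adamts5 -0.45 (0.143).

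Relatives of the 10 genes were counted in the same way, against 10.0% of all genes with an unadjusted limma p under 0.05 in the lower direction. Of 21 kept other matricellular genes, 2 fell, Thbs4 (-0.69, adjusted p = 0.0184) and Thbs3 (-0.65, 0.0363), with Spock2 at -0.52 (0.0666) and Tnxb at -0.49 (0.0743). The list median was -0.24. None of 7 other kept matrix metalloproteinases passed, with a median of -0.10, and 3 had an unadjusted p under 0.05: Mmp11 (-0.36), Mmp23 (-0.32) and Mmp24 (-0.27), while Mmp9 had 0.17. None of 10 other kept cathepsins passed, with a median of -0.072 and 2 at an unadjusted p under 0.05. Ctsh had -0.40, Ctsl -0.39, Ctss -0.39 and Ctsd 0.14. None of 6 other kept protease inhibitors passed, with 2 at an unadjusted p under 0.05, a median of -0.28, and values of -0.40 for Cst3, -0.41 for Serping1, -0.25 for Reck and -0.32 for Timp4.

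Receptors and growth factor genes were mixed. Of 13 matrix receptors, the integrin subunit Itgb5 rose (0.56, limma adjusted p = 0.0234) and the fibronectin receptor subunit Itga5 fell (-0.51, 0.0441). The collagen receptor Ddr2 had -0.41 (0.0707) and the thrombospondin receptor Cd47 -0.41 (0.136). None of 15 kept TGF-beta axis genes passed, with 4 at an unadjusted limma p under 0.05, among them Tgfb3, which was higher in F0. Such a p in the lower direction was seen for 10.0% of all genes. Their median was -0.0047, with Ltbp4 at -0.37, Tgfb3 at 0.52, Ltbp1 at -0.23 and Tgfb1 at -0.29.

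**Figure D3:**
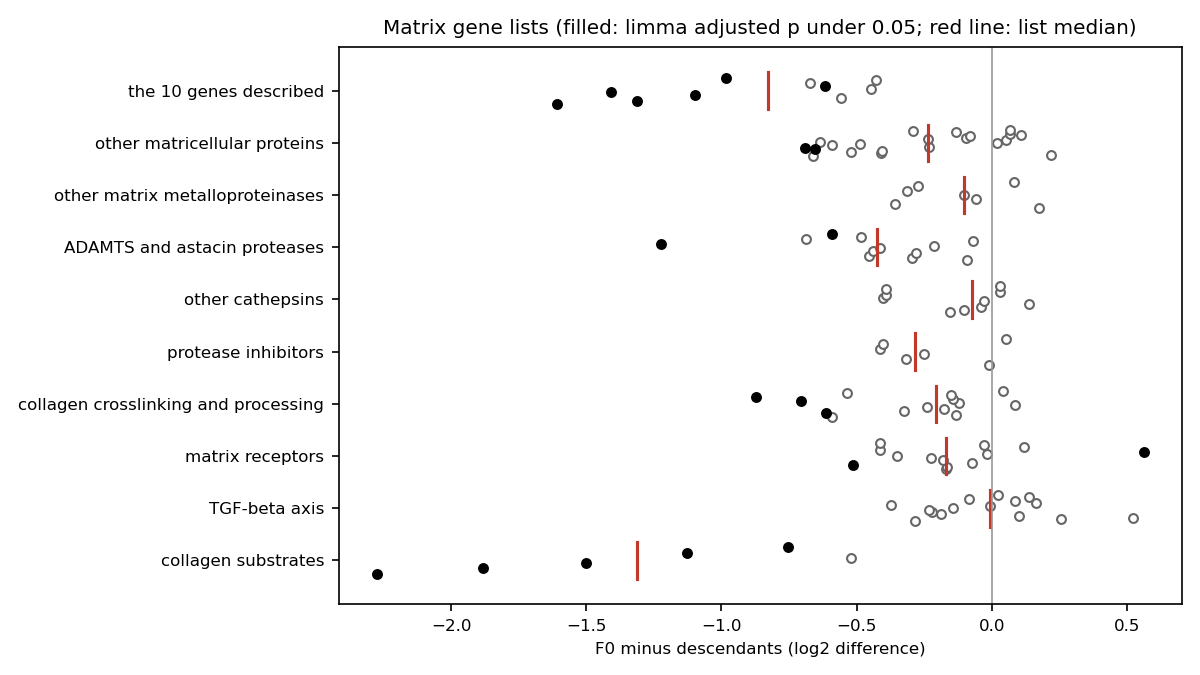
Each point is the log2 difference, F0 minus descendants, of 1 gene, in rows for the 10 genes and for each list of other matrix genes, with filled points for a limma adjusted p under 0.05 and a red line at the list median. The medians lie at -0.83 for the 10 genes, at -1.31 for the collagen and elastin genes, and between -0.42 and 0 for the other lists.

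Markers of matrix-forming and other cells moved in the same comparison. Of 6 tenocyte markers 4 fell (Tnmd -1.02, Kera -1.09, Fmod -0.90 and Chad -0.86), and the list's mean signal was 6.27 to 6.29 in F0 against 6.73 to 7.34 in descendants. Of 7 fibroblast markers 1 fell, Col15a1 (-0.83, limma adjusted p = 0.0199), with a mean signal of 7.11 to 7.13 in F0 against 7.30 to 7.52 in descendants, while Cd34 had -0.62, Dpt -0.26 and Clec3b -0.18. Of 8 endothelial markers 2 fell, Pecam1 (-0.71) and Cdh5 (-0.62), with a mean signal of 6.29 to 6.59 in F0 against 6.80 to 6.94 in descendants. None of 8 macrophage, 6 pericyte and smooth muscle, 8 muscle fibre, 5 kept adipocyte or 4 satellite cell markers passed. Those with an unadjusted limma p under 0.05 numbered 4, 3, 2, 1 and 1. All were lower in F0 except the adipocyte marker Cidec, which was higher (0.61). Of all genes, 10.0% had such a p in the lower direction. All 5 cycling cell markers in the table were below the filter, with a mean signal of 2.46 to 2.54 in F0 and 2.58 to 2.95 in descendants. In whole muscle, fewer cells of a type and less RNA per cell cannot be told apart, and the part of these cell types in the differences of the 10 genes was not tested.

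Exercised and sedentary F0 animals were represented by 1 pool each, so their difference has no replicate check and no test. Ctsk was higher in F0 EX by 1.26 and Fn1 by 0.77, and Timp1 differed by -0.68. Across all genes, 15.3% were higher by at least 0.5 and 5.38% lower, so 2 genes higher and 1 lower of 10 is near the background. Ctsk was the 66th largest difference of either sign. The other 7 genes lay between -0.35 (Thbs1) and 0.33 (Timp2), with Sparc at -0.0054, Postn at 0.025 and Lox at 0.049. The gap between the 2 pools of a descendant group reached 0.76 for Fn1 and 0.92 for Timp1, both in F1 EX, and 0.27 for Ctsk. With quantile normalization Ctsk was higher by 1.31 and Fn1 by 0.55, while Timp1 differed by -0.59 and Thbs1 by -0.57. Centring each array on its median moved every gene up alike, to 1.41 for Ctsk, 0.92 for Fn1 and -0.53 for Timp1. The signs of Sparc, Postn and Mmp14 depended on the scaling.

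In sedentary descendants the comparison asks whether the activity of parents or grandparents left a difference in these genes. Over both generations, Ctsk and Mmp14 had the highest estimates in EX ancestry, and none of the 10 genes passed (0% of all genes did, limma adjusted p of at least 0.888). Ctsk had 6.08 and 5.81 in the F1 EX pools and 5.81 and 5.96 in the F2 EX pools, against 5.70 and 5.74 in F1 SED and 5.40 and 5.52 in F2 SED. All 4 EX pools lay above all 4 SED pools, by 0.33 on average (95% interval 0.11 to 0.54). Mmp14 had 7.02 and 6.96 in F1 EX and 6.96 and 6.95 in F2 EX, against 6.62 and 6.71 in F1 SED and 6.43 and 6.79 in F2 SED. The EX pools were again above every SED pool and close to each other, with a difference of 0.34 (0.13 to 0.55). Mmp2, which MMP14 activates, had 8.92 in EX and 8.75 in SED on average, a difference of 0.17 (-0.022 to 0.36).

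An estimate above 0 was seen for 9 of the 10 genes and for 53.3% of all genes, and the median was 0.092 for the 10 and 0.010 for all. Ctsk and Mmp14 were the 2 of 10 genes with an unadjusted p under 0.05 in the higher direction (6.25e-03 and 5.08e-03, from the limma fit), where 2.47% of all genes had one, and in 1.75% of all genes every EX pool lay above every SED pool. No gene of the 11963 passed with limma, and 597 had an unadjusted p under 0.05. The same 2 genes held 0.29 and 0.33 without F1 EX pool 1. Of the others, Thbs1 had 0.14 (95% interval -0.12 to 0.41), Postn 0.10 (-0.18 to 0.39), Lox 0.083 (-0.24 to 0.41), Timp2 0.066 (-0.18 to 0.31), Timp1 0.052 (-0.32 to 0.42), Sparc 0.040 (-0.16 to 0.24) and Fn1 -0.12 (-0.51 to 0.28). Their EX and SED pools overlapped. Postn had 0.0022 without F2 SED pool 1, 0.0080 without F2 EX pool 2 and 0.21 without F1 EX pool 1, and Thbs1 had 0.047 without F2 EX pool 2. Without F1 EX pool 1 the value was 0.091 for Fn1, -0.14 for Timp1 and -0.0040 for Timp2. The Timp2 value was also -0.00094 without F2 SED pool 1. Sparc and Lox turned below 0 without F2 EX pool 2 (-0.0052 and -0.034) and without F2 SED pool 1 (-0.0088 and -0.00083).

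Within F1, Mmp14 had the highest estimate (0.32, 95% interval 0.0060 to 0.64) and Fn1 the lowest (-0.39, -0.91 to 0.13). Fn1 had 8.40 and 9.16 in F1 EX against 9.23 and 9.12 in F1 SED, so that 1 pool made the difference, which was -0.013 without F1 EX pool 1. Without that pool Ctsk had 0.096, Mmp2 0.062, Postn -0.028 and Mmp14 0.29. Timp1 had 5.07 and 4.15 in F1 EX, on either side of 4.42 and 4.60 in F1 SED, and its value was 0.11, or -0.35 without F1 EX pool 1. None of the 10 genes or of all genes passed with limma. Mmp14 was 1 of 10 with an unadjusted p under 0.05 in the higher direction, against 1.98% of all genes, and 584 of all genes had one in either direction. Without F1 EX pool 2, which leaves only the array that stood apart on the EX side, Fn1 had -0.77 and Timp1 0.57. Both EX pools lay above both SED pools for 3 of the 10 genes (Ctsk, Mmp2 and Mmp14, against 13.0% of all genes) and below them for 2 (Sparc and Thbs1, against 16.6%). All 6 tenocyte markers had estimates below 0 in F1, a sign whose share over all genes is not given here. Of these 6, 2 had an unadjusted limma p under 0.05, as did 584 of the 11963 genes in either direction. The mean signal of the list was 6.73 and 6.80 in F1 EX against 7.02 and 7.01 in F1 SED. The 5 kept adipocyte markers had a median difference of -0.78, with 4 at an unadjusted p under 0.05. None of either list passed the threshold, and their part in these values was not tested.

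Within F2, the glycoproteins Thbs1 and Postn and the proteases Ctsk and Mmp14 had higher estimates in EX. Thbs1 had 7.57 and 7.78 in F2 EX, against 7.23 and 7.28 in F2 SED, a difference of 0.42 (95% interval 0.13 to 0.70). Postn had 6.74 and 6.95 in F2 EX, against 6.36 and 6.60 in F2 SED, a difference of 0.36 (0.025 to 0.70). Both pairs of EX pools lay above both SED pools. Ctsk differed by 0.42 (0.12 to 0.73) and Mmp14 by 0.35 (0.031 to 0.67). The Mmp14 value rested on the SED pools, with 0.17 without F2 SED pool 1 and 0.53 without F2 SED pool 2, and that of Mmp2 was 0.11 and 0.31 in the same fits. When any 1 F2 pool was left out, Ctsk lay between 0.35 and 0.50, Thbs1 between 0.31 and 0.52 and Postn between 0.24 and 0.48. The estimate for Mmp2 was 0.21 and for Sparc 0.14, with separated pools, and those for Fn1 (0.16), Lox (0.11), Timp2 (0.081) and Timp1 (-0.0034) came from overlapping pools.

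None of the 10 genes passed in F2 (limma adjusted p of 1.00 for each), and none of all genes did, with 532 at an unadjusted p under 0.05. An unadjusted p under 0.05 in the higher direction was seen for 4 of the 10, against 1.81% of all genes. In 6 of the 10 both EX pools lay above both SED pools, against 25.8% of all genes, and 9 of the 10 were above 0, against 60.7%. The median of the 10 was 0.19 and that of all genes 0.037. Fibrillar collagen and elastin genes had a median of 0.23, with 6 of 6 above 0 and none past the threshold or at an unadjusted p under 0.05. Tenocyte markers had a median of 0.25, with 0 of 6 past the threshold and 1 at an unadjusted p under 0.05. Their mean signal was 7.09 and 7.34 in F2 EX against 6.90 and 6.97 in F2 SED, and fibroblast markers had 7.41 and 7.52 against 7.37 and 7.37. Their part in the result was not tested.

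**Figure D4:**
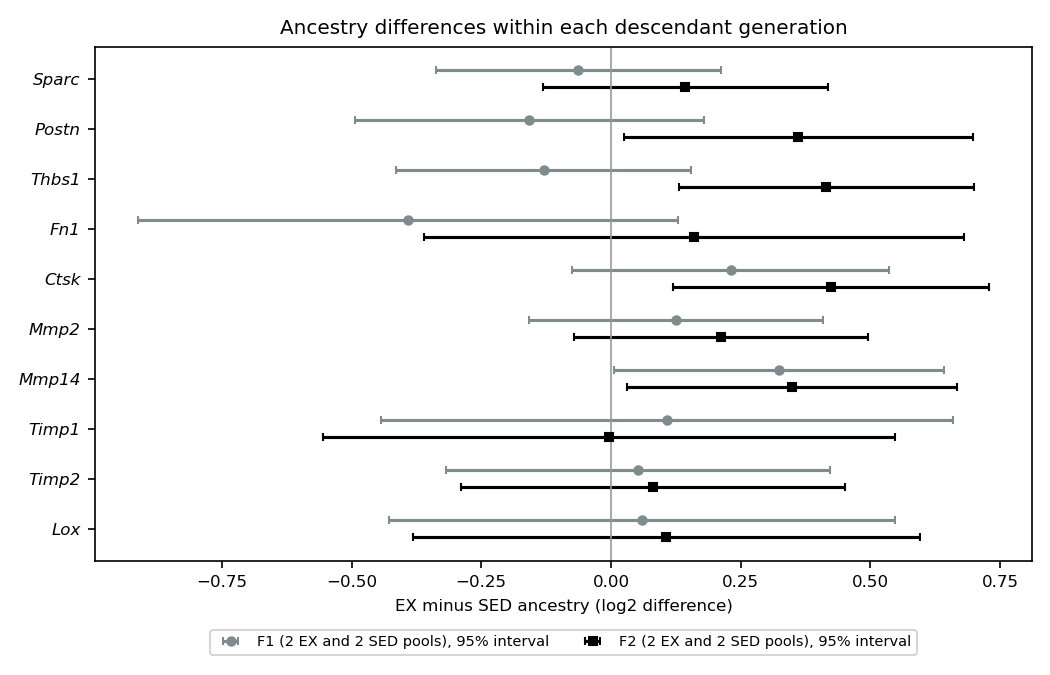
Points give the log2 difference, EX minus SED ancestry, of each gene within F1 (grey circles) and within F2 (black squares), with 95% intervals from the limma fit on 8 descendant arrays. The F2 intervals of Postn, Thbs1, Ctsk and Mmp14 and the F1 interval of Mmp14 lie above 0, and no gene passed after adjustment.

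The ancestry difference was set against itself between generations. Thbs1 had the smallest p of the 10, with a value 0.54 higher in F2 than in F1 (SE 0.179, 95% interval 0.14 to 0.95, limma adjusted p = 0.919). In F1 it was lower in EX, at 7.22 and 7.29 against 7.44 and 7.33, and in F2 higher. Postn followed with 0.52 (0.043 to 0.99, adjusted p = 0.919), Fn1 had 0.55 (-0.19 to 1.29) and Sparc 0.21 (-0.18 to 0.59). The Fn1 value was 0.17 without F1 EX pool 1 and 0.93 without F1 EX pool 2, while Thbs1 lay between 0.44 and 0.65 and Postn between 0.39 and 0.65 when any 1 array was left out. Among the proteases it was 0.19 for Ctsk (-0.24 to 0.63), 0.086 for Mmp2 (-0.31 to 0.49) and 0.025 for Mmp14 (-0.42 to 0.47). None of all genes passed with limma and 519 had an unadjusted p under 0.05, among them 2 of the 10, against 2.28% of all genes in the higher direction.

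Generations of the same age were compared last. Postn was 0.43 higher in F2 than in F1 (SE 0.129, 95% interval 0.15 to 0.72, unadjusted p = 6.48e-03 and adjusted p = 0.911 from the limma fit), the largest estimate of the 10. It had 6.74, 6.95, 6.36 and 6.60 in F2, against 6.02, 6.28, 6.37 and 6.24 in F1, and the lowest F2 pool lay just under the highest F1 pool. Fn1 had 0.28, Lox 0.27, Sparc 0.17 and Thbs1 0.14, while Timp1 had -0.27 and Ctsk -0.16. Without F1 EX pool 1 the value was 0.069 for Fn1, -0.077 for Timp1 and 0.076 for Thbs1, and without F2 EX pool 2 it was 0.048 for Thbs1 and 0.15 for Lox. Postn lay between 0.33 and 0.53 when any 1 array was left out. Mmp2 (0.032), Mmp14 (-0.046) and Timp2 (0.0096) had the smallest. None of the 10 or of all genes passed with limma. An unadjusted p under 0.05 was seen for 509 of all genes, and in the higher direction for 1 of the 10 and 2.45% of all. With trend and robust settings 2 of all genes passed and with array weights 1, none of them among the 10.

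Over all 8 descendant pools the 10 genes did not vary as 1 block, and they were less divided without F1 EX pool 1. Over the 8 pools Sparc and Postn had the highest correlation (r = 0.95), and Thbs1 was closest to Postn (0.84), Lox to Sparc (0.81) and Fn1 to Postn (0.79). Mmp14 and Mmp2 formed another pair (0.88), and Ctsk was closest to Mmp14 (0.84), with values of 0.059 with Sparc and -0.062 with Postn. Timp1 was the farthest partner of 5 of the other 9 genes, at -0.77 with Fn1 and -0.58 with Postn. Part of this came from F1 EX pool 1: over the other 7 pools Timp1 had 0.097 with Fn1 and -0.19 with Postn, Timp2 had 0.93 with Fn1 against -0.16 over 8 pools, and Ctsk had 0.35 with Sparc and 0.44 with Postn. Mmp2 rose from 0.38 to 0.81 with Postn and from -0.034 to 0.76 with Fn1, and Ctsk from 0.36 to 0.78 with Thbs1. Lox stayed low over these 7 pools with Ctsk (0.18) and with Mmp14 (0.25). Sparc with Postn (0.98) and Mmp2 with Mmp14 (0.86) were alike either way. These values are descriptions over pools that share array processing and ancestry.

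**Figure D5:**
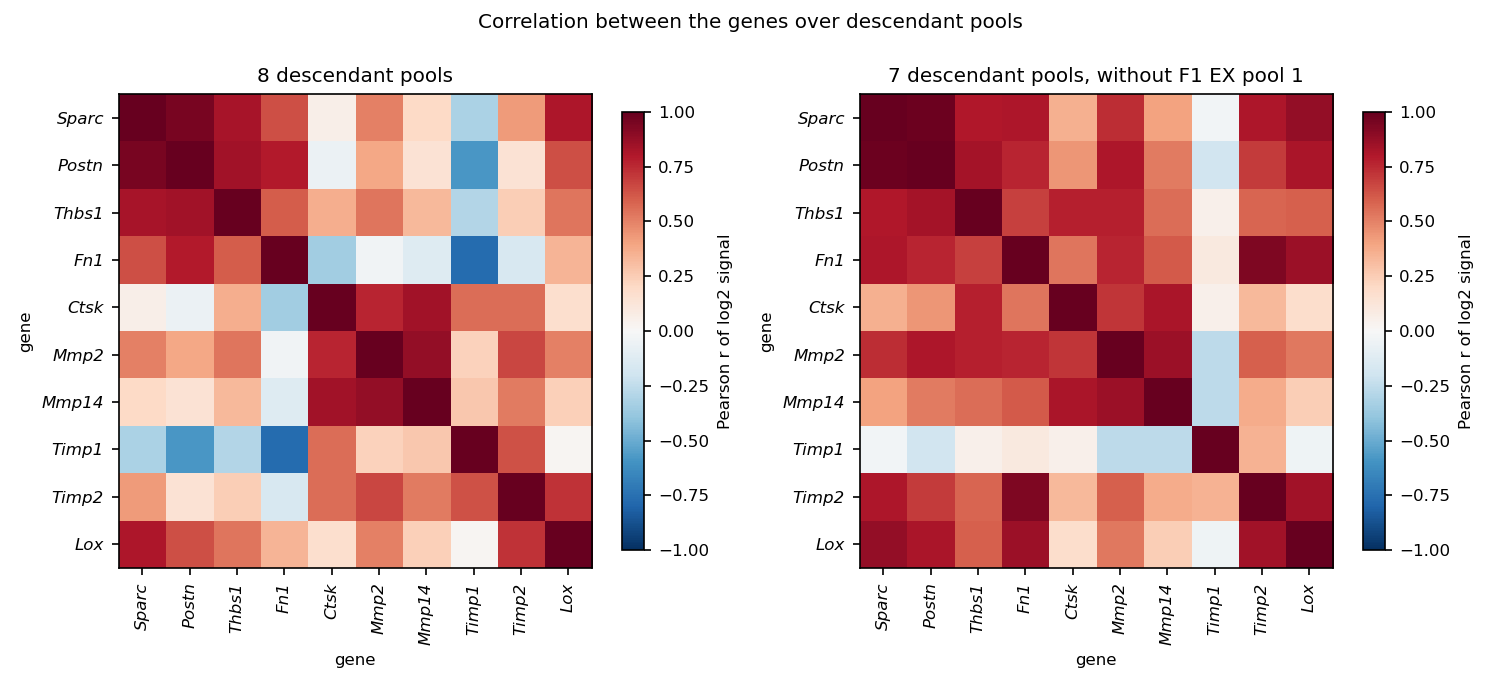
Colours give Pearson r between the log2 signals of each pair of the 10 genes over the 8 descendant pools (left) and over 7 of them without F1 EX pool 1 (right). Sparc with Postn stands at 0.95 and 0.98, and the Timp1 row holds the darkest blue cell of the left panel, -0.77 with Fn1, where the right panel has 0.097.

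The genes most like the mean of the 10 over the 8 descendant pools, out of all kept genes, were Pigk (r = 0.97), Cenpx (0.96), Gid8 (0.94), Ctsc (0.94) and Tmtc1 (0.94). Over 7 pools without F1 EX pool 1 they were Tmem167 (0.99), Pigk (0.98), Mamld1, Fkbp3 and Cenpx (0.97 each). Over all 10 arrays, which fall into F0 and descendant clusters so that r mostly restates their gap, they were Lamb1 (0.99), Col1a2, C1qtnf6, Col1a1 and S100a10 (0.98 each). With 8 arrays and 11963 genes, high values arise easily. Of the 10 genes themselves, Sparc was closest to the mean of the others over the 8 pools (0.80), followed by Mmp2 (0.77) and Thbs1 (0.75), and Fn1 (0.14) and Timp1 (-0.17) were farthest. Over the 7 pools without F1 EX pool 1, Fn1 was the closest (0.91), ahead of Sparc (0.89), and Timp1 the farthest (-0.051), so that 1 array set the place of Fn1.

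The order of group means shows where each gene stood. In all 10 genes the lowest places were those of F0 EX and F0 SED. Sparc, Postn, Thbs1 and Fn1 had their highest mean in F2 EX, as did Mmp2, Timp2 and Lox, while Ctsk, Mmp14 and Timp1 had it in F1 EX. Sparc had a mean of 10.67 in F1 EX against 10.73 in F1 SED, and of 10.95 in F2 EX against 10.80 in F2 SED. Lox had 5.69 in F1 EX against 5.63 in F1 SED, and 5.98 in F2 EX against 5.87 in F2 SED. Neighbouring descendant groups lay closer than the gap between their own pools for Lox and Timp2, where pools of a group differed by up to 0.56 and 0.37.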

How the data were processed

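Per the labels' protocols, each array carried sense-strand cDNA made from RNA of 5 pooled animals. The authors deposited log2 signals of 35557 probe sets, a scale read here from their range of 0.966 to 14.2. Affymetrix Expression Console is named per the submitters' processing notes, with its version, normalization and genome build not given in the sources used here. Precision is limited by the number of arrays.

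GEO's platform annotation, which may be outdated, gave 1 gene symbol to 21789 probe sets, several to 1621 and none to 12147. Each gene was represented by its probe set of highest mean, and the 11963 genes whose mean reached the 40th percentile (3.23) entered the fits. All 10 members matched RefSeq (GRCm38.p6) by Entrez identifier. Tests used limma 3.58.1 (lmFit, eBayes, R 4.3.3), with Benjamini-Hochberg adjustment across these genes, and were tried on simulated data. F0 was compared with the average of both descendant generations (10 arrays, terms for generation and ancestry). The other comparisons used the 8 descendant arrays, with additive terms or with a mean for each group. Alternatives covered scaling, filters, limma settings, probe set choice, the pool number as a block and left-out arrays. The fit without both F0 SED and F1 EX pool 1, and correlations without F1 EX pool 1, were added after seeing the data.

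Members and lists were chosen with earlier results of these data known. All members are named, plus, per list, up to 4 genes of smallest p between F0 and descendants, and the 5 genes most like the members' mean.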

Additional observations from a re-analysis of the deposited data

Results flagged for a closer look

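The Fn1 signal of F1 EX pool 1 (8.40) lay apart from the other pools, both among the 8 descendant pools, where the nearest was at 8.98, and among the 4 F1 pools, where the nearest was at 9.12. The Mmp14 signal of the same pool (7.02) lay apart from the other EX descendant pools, although the nearest was at 6.96, since those 3 pools differed by little. In all 50 groups of values were examined, 3 stood out in this way, and chance alone gives about 1 in 20. F1 EX pool 1 is one of the 2 arrays that stood apart across all genes.

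Sparc and Thbs1 were lower in both EX pools than in both SED pools of F1 and higher in both EX pools of F2. Of all genes, 16.6% were lower in this way in F1 and 25.8% higher in F2, and the share with both was not counted. The F1 value of Sparc was only -0.063, and 0.014 with quantile normalization. The difference between the F2 and F1 effects was 0.21 for Sparc (limma adjusted p = 0.922) and 0.54 for Thbs1 (0.919), so neither passed the test of that difference.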

How the results depend on the processing

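Between F0 and descendants, all 199 values of the 10 genes under other settings kept a negative sign; 171 also stayed on the same side of the threshold, 22 lost the call and 6 gained it. Of all genes, 38 passed with array weights (3 of the 10: Sparc, Postn and Ctsk), 14 with F1 arrays alone (1 of the 10), 170 without F0 SED and F1 EX pool 1 (6 of the 10), and from 86 (without F0 SED) to 1231 (without F0 EX) when 1 array was left out (3 to 8 of the 10), against 279. Without F1 EX pool 1 the count was 584 (8 of the 10), without F2 EX pool 2 185 and without F2 SED pool 2 181. The cause was not tested, beyond fewer arrays where some were left out. Timp1 has no value under the 60th percentile filter, which it did not pass.

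In the ancestry comparison over both generations, 12 of 169 values turned sign: Fn1 was 0.076 and Timp1 -0.069 with array weights, and Fn1 0.061 and Timp1 -0.094 with the F0 pair included. When 1 array was left out, Sparc lay between -0.0088 and 0.076, Fn1 between -0.25 and 0.091, Timp1 between -0.14 and 0.23, Timp2 between -0.0040 and 0.14 and Lox between -0.034 and 0.19. Within F1, Sparc was 0.014 with quantile normalization, and leaving out 1 array gave -0.35 to 0.57 for Timp1, -0.13 to 0.23 for Timp2 and -0.11 to 0.23 for Lox, with 0 to 1046 of all genes and 0 to 2 of the 10 passing. The 1046 passed without F1 EX pool 2, and 8 without F1 SED pool 1. Within F2, Timp1 was 0.057 centred and 0.046 with quantile normalization, and leaving out 1 array gave -0.028 to 0.35 for Fn1, -0.071 to 0.064 for Timp1, -0.080 to 0.24 for Timp2 and -0.18 to 0.39 for Lox.

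For the difference of ancestry effects, quantile normalization gave -0.0049 for Mmp2, -0.061 for Mmp14, -0.057 for Timp2 and -0.034 for Lox. Leaving out 1 array gave -0.012 to 0.18 for Mmp2, -0.15 to 0.20 for Mmp14, -0.57 to 0.35 for Timp1, -0.15 to 0.21 for Timp2 and -0.24 to 0.33 for Lox, with 0 to 143 of all genes passing (143 without F1 EX pool 2, 5 without F1 SED pool 1) and none of the 10. For F2 against F1, Timp2 was -0.019 with quantile normalization, array weights let 1 gene pass and robust fitting with a trend 2. Leaving out 1 array gave -0.0026 to 0.080 for Mmp2, -0.11 to 0.028 for Mmp14 and -0.066 to 0.080 for Timp2. The median difference of the 10 genes between F0 EX and F0 SED was 0.18 centred and -0.053 with quantile normalization, against 0.037.

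Pool numbers 1 and 2 showed no pairing of the samples: the correlation of deviations with the same number was from -0.11 to 0.064 over 6 pairs of groups. The replicate block left the count at 0 genes and 0 of the 10 in each of the 5 comparisons among descendants. These counts were 0 without the block too, so they cannot tell whether the numbers pair the samples.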
